A study of Mus musculus with 3 samples.

Results

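The Cyp17a1-low steroidogenic cells of the mouse ovary were the cells with much *Cyp11a1* RNA, which encodes the enzyme that makes the first steroid from cholesterol, and little RNA of *Cyp17a1*, which encodes the enzyme that turns progestins into androgens. They numbered 572 of the 31776 cells of the deposited table, or 1.80% (95% exact binomial interval 1.66 to 1.95%). They were chosen by measured values, on the table's scale, ln(1 + UMIs per 10000), where a UMI is a counted RNA molecule and the 10000 refer to all UMIs of that cell. A cell was a member with *Cyp11a1* of at least 3, *Cyp17a1* under 2, *Inha*, a granulosa cell (GC) gene, under 2.5, UMIs of fewer than 2 of the 4 luteal genes *Ptgfr*, *Sfrp4*, *Akr1c18* and *Parm1*, and none of the leukocyte gene *Ptprc* or the endothelial gene *Pecam1*. Back-transformed, the cutoffs are 19.1 UMIs per 10000 for *Cyp11a1*, 6.39 for *Cyp17a1* and 11.2 for *Inha*. The levels of these 9 genes were therefore fixed by the choice of cells and are given as a description.

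The data were 10x Genomics single-cell RNA-seq libraries of whole mouse ovary, taken at 0, 1 and 6 h of treatment with hCG (human chorionic gonadotropin), which stands in for LH at its receptor, and each time point had 1 library. The study describes ovaries of immature Kunming mice primed with pregnant mare serum gonadotropin (PMSG), and neither it nor the labels state whether the ovaries at 1 and 6 h were primed in the same way. The cell barcodes end in 1, 2 or 3, here called barcode sets 1, 2 and 3, and no source used here gives the library of an ending, so no set was given a time point. Conditions could therefore not be tested against each other, cells were not used as replicates, and no p-value is given. Levels are means over cells of UMIs per 10000, and the 95% intervals cover counting error only, not the spread among cells, animals or libraries.

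Steroid-forming cells of the ovary outside the GC layers lie in the theca around growing follicles and in the interstitial tissue between them. Both import cholesterol into mitochondria, cleave its side chain with the product of *Cyp11a1*, and convert pregnenolone to progesterone with 3β-hydroxysteroid dehydrogenase. Theca cells then make androgens with the product of *Cyp17a1*, which GCs aromatise to estrogens. A cell with the first steps and without *Cyp17a1* can make progestins and lacks the androgen step.

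Set 1 held 301 of the Cyp17a1-low cells, or 2.90% of its 10384 cells (2.58 to 3.24%). Set 2 held 38, or 0.383% of 9917 cells (0.271 to 0.526%), and set 3 held 233, or 2.03% of 11475 cells (1.78 to 2.31%). Set 2 thus contributed so few members that single cells weigh heavily in its means. The cells set beside them were all 1366 cells with *Cyp17a1* of at least 2.5, called Cyp17a1-high, of which sets 1, 2 and 3 held 742, 407 and 217. A narrower comparison group, the matched Cyp17a1-high cells, held the 524 of these that also met every other condition of the members, and 100 cells that met those conditions fell between the *Cyp17a1* cutoffs. The median depth was 9197.5 UMIs in the Cyp17a1-low cells, 11809.5 in the Cyp17a1-high cells and 6347.5 over the whole table, with a range of 500 to 36289 among the members. Sets shared 27, 46 and 39 cell barcodes pair by pair, and none of these barcodes belonged to a member in both sets.

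**Figure D1:**
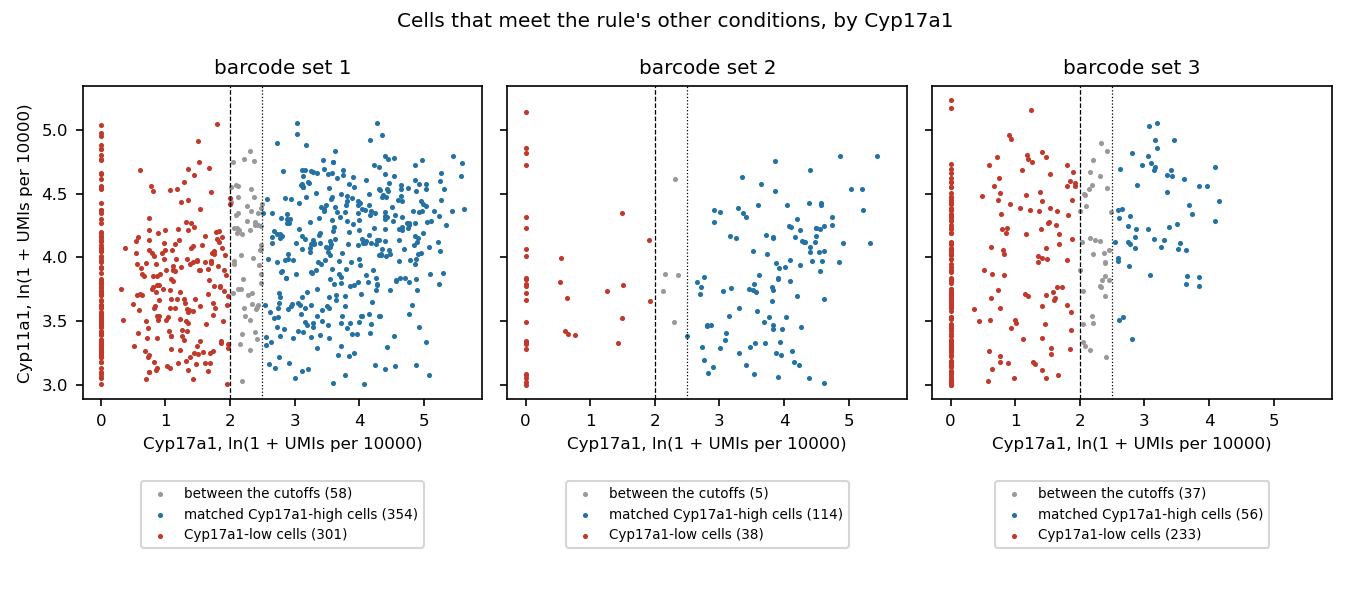
Each point is a cell that met the conditions on *Cyp11a1*, *Inha*, the luteal genes, *Ptprc* and *Pecam1*, placed by *Cyp17a1* (x axis) and *Cyp11a1* (y axis), both as the natural log of 1 plus UMIs per 10000. The points run without a gap across the dashed line at 2 and the dotted line at 2.5 in sets 1 and 3, and 275 of the 572 members lie at 0 on the x axis.

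The members were a range cut from measured values, with cells on both sides of each cutoff. There were 90 cells with *Cyp17a1* from 1.5 to 2 that met the other conditions and 100 from 2 to 2.5. Just below and above the *Cyp11a1* cutoff there were 200 and 177 cells, and just below and above that for *Inha* 160 and 184. *Adh1* was at 0.455 UMIs per 10000 in the cells just below the *Cyp11a1* cutoff and at 1.10 in those just above it. In the members just below the *Cyp17a1* and *Inha* cutoffs *Adh1* was at 1.67 and 1.98. Just above them, in cells left out, it was at 1.73 and 2.17. In these left-out cells *Mgat4c* was at 0.362 and 0.626 and *Prxl2a* at 3.20 and 2.17, against 0.284 and 2.39 in all members. No *Cyp17a1* UMI was found in 48.1% of all members, and by set this share was 37.9%, 65.8% and 58.4%. In cells thinned to 3000 UMIs, 36.3%, 30.0% and 27.1% of the members of sets 1, 2 and 3 held a *Cyp17a1* UMI. In the 297 cells with UMIs of both leukocyte genes *Ptprc* and *Tyrobp*, which should lack it, the thinned shares were 13.3%, 5.95% and 4.0%.

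The label given to these cells names 3 markers besides *Cyp11a1*, and none of them was higher in the members than in the Cyp17a1-high cells in every set. *Adh1* encodes a class I alcohol dehydrogenase that oxidises ethanol and retinol. *Mgat4c* belongs to the family of transferases that branch N-glycans. *Prxl2a* encodes a peroxiredoxin-like protein. In the 29838 remaining cells *Adh1* was at 0.194, *Mgat4c* at 0.0219 and *Prxl2a* at 0.276 UMIs per 10000, and the members, at 1.56, 0.284 and 2.39, were higher in all 3. Of all genes with a level of at least 0.5 in either group, 4.90% were at least 2-fold higher in the members than in those cells and 7.55% lower. None of the 3 markers had a UMI in 205 members (35.8%) and in 240 Cyp17a1-high cells (17.6%), and all 3 were found together in 44 members (7.69%) and 147 Cyp17a1-high cells (10.8%). The cells are therefore called by their rule, Cyp17a1-low cells, in what follows.

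The promoters of these 3 markers are shown because the 3 RNAs were high together in 1 cluster of members described further on. Each line holds the 250 bases upstream of the first start site, 5′ to 3′ on the gene's strand, from RefSeq on GRCm38.p6. Capitals mark GATAA or its reverse complement TTATC, the core bound by GATA factors, which are known regulators of steroid-forming genes. This motif was chosen after the data were seen, and 22.6% of the 32851 promoters of the RefSeq table held it in the same window. The stretches lie at chr3:138277335-138277584 (plus strand) for *Adh1*, chr10:101681237-101681486 (plus strand) for *Mgat4c* and chr14:41013834-41014083 (minus strand) for *Prxl2a*.
Adh1: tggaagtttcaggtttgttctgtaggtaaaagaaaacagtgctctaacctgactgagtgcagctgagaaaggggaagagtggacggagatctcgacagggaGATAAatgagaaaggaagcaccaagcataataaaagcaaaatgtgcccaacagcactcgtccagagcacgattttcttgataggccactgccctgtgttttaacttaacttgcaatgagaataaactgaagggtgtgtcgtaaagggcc
Mgat4c: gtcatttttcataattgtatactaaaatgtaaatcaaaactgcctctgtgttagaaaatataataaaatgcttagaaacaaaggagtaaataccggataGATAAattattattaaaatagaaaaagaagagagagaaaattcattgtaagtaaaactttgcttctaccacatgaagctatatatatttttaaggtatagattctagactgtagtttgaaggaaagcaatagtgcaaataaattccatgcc
Prxl2a: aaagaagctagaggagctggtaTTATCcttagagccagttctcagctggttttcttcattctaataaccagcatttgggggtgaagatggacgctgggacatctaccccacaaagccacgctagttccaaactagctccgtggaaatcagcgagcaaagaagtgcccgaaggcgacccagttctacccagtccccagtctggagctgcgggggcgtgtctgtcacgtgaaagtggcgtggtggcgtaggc
Over all start sites in the table, the core was found in 1 of 1 promoters of *Adh1*, 3 of 4 of *Mgat4c*, 2 of 5 of *Prxl2a*, 0 of 2 of *Cyp11a1*, and 0 of 1 each of *Fads2* and *S100a6*. AAGGTCA or its reverse complement TGACCTT, bound by NR5A receptors, was also searched, in 300 bases of which the last 50 lie past the start, and was found in 4.72% of all promoters and in none of the promoters of these 6 genes. A match describes letters in a window and is not a measured binding site.

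*Adh1* stood at 2.14, 1.91 and 0.737 UMIs per 10000 in the Cyp17a1-low cells of sets 1, 2 and 3, and at 1.10, 1.23 and 2.21 in the Cyp17a1-high cells. The ratios of the groups were 1.95 (1.74 to 2.17), 1.55 (1.17 to 2.03) and 0.334 (0.267 to 0.414). *Adh1* was thus higher in the Cyp17a1-low cells of sets 1 and 2 and lower in those of set 3, beyond counting error. Pooled over sets the ratio was 1.18 (1.08 to 1.29), and against the matched cells it was 1.59 (1.40 to 1.82). After thinning to 3000 UMIs, 33.1%, 23.3% and 13.6% of the members of sets 1, 2 and 3 held an *Adh1* UMI, against 20.4%, 18.4% and 31.8% of the Cyp17a1-high cells and 3.65% of the leukocyte-gene cells. The binomial intervals of these shares in set 2, 9.93 to 42.3% and 14.6 to 22.6%, overlapped. The *Adh1* UMIs of set 2 lay in 14 of its 38 members. Unthinned, the shares in the members were 49.8%, 36.8% and 19.7%, and 4.38% of the leukocyte-gene cells, whose median depth was 4803 UMIs, held one.

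*Mgat4c* stood at 0.468, 0.506 and 0.0112 UMIs per 10000 in the Cyp17a1-low cells of sets 1, 2 and 3 and at 0.595, 0.954 and 0.250 in the Cyp17a1-high cells. It was lower in the Cyp17a1-low cells when the sets were pooled, with a ratio of 0.440 (0.353 to 0.543), and lower in sets 1 and 3 taken singly, at 0.786 (0.648 to 0.949) and 0.0446 (0.0132 to 0.113). In set 1 the thinned shares of cells with a *Mgat4c* UMI were nearly alike, at 9.61% of the members and 9.52% of the Cyp17a1-high cells. Only 10 of its UMIs came from the members of set 2 and 5 from those of set 3, and the interval of set 2, at 0.531 (0.110 to 1.56), includes 1. In set 3 a *Mgat4c* UMI was found in 1.29% of the members (0.266 to 3.72%) and in 0 of 116 leukocyte-gene cells (upper bound 3.13%), and the share in the members is read as background. Against the matched cells of set 1 the ratio turned to 1.81 (1.40 to 2.36).

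*Prxl2a* stood at 3.79, 1.46 and 0.728 UMIs per 10000 in the Cyp17a1-low cells and at 3.51, 2.71 and 0.801 in the Cyp17a1-high cells of sets 1, 2 and 3. The ratios were 1.08 (0.981 to 1.19), 0.537 (0.373 to 0.752) and 0.909 (0.723 to 1.14), and both groups followed the same order of sets. Thinned shares of members with a *Prxl2a* UMI were 58.0%, 36.7% and 14.5%, against 53.5%, 45.4% and 22.3% of the Cyp17a1-high cells and 8.33%, 4.76% and 1.33% of the leukocyte-gene cells.

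**Figure D2:**
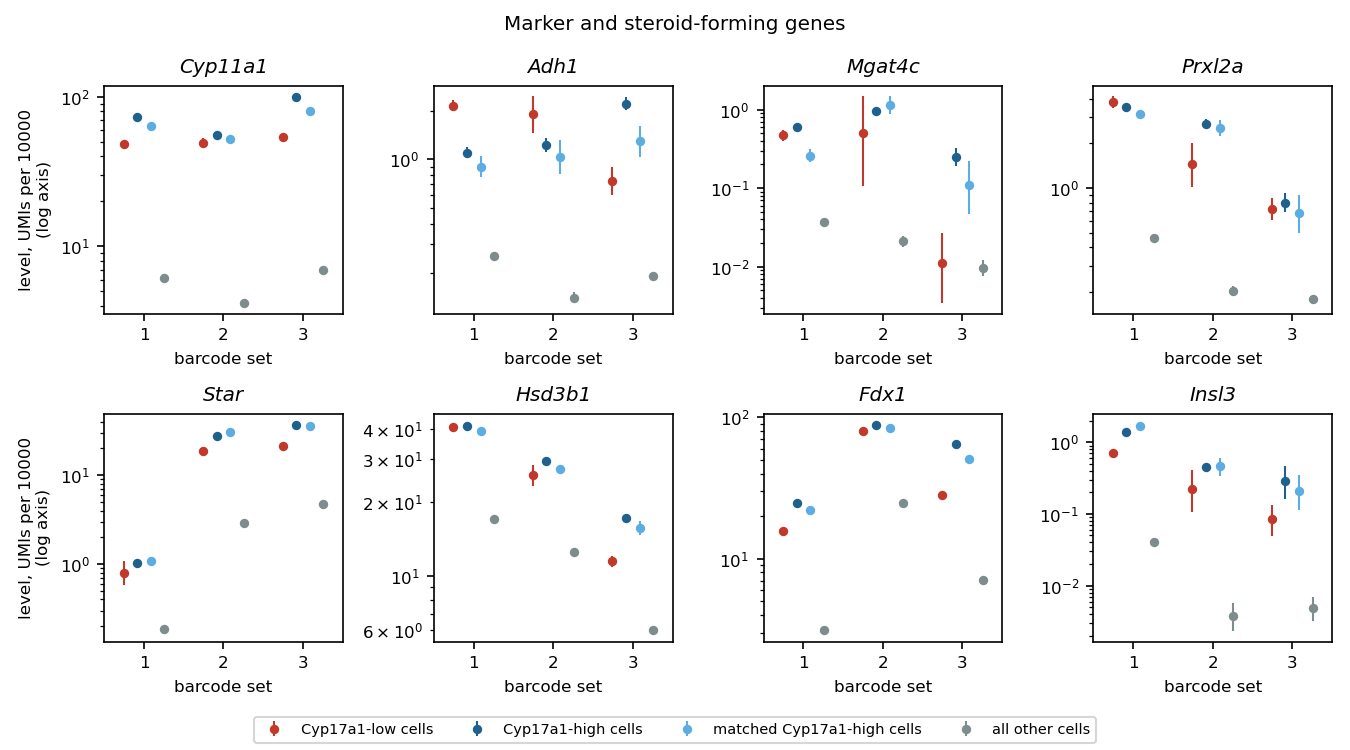
Levels in UMIs per 10000 (y axes, log scale) of *Cyp11a1*, the 3 other markers and 4 genes of theca steroid and hormone output in barcode sets 1 to 3 (x axes), with points as means over cells and bars as 95% intervals of counting error. Red points are Cyp17a1-low cells, dark blue all Cyp17a1-high cells, light blue the matched Cyp17a1-high cells and grey all remaining cells, and *Adh1* changes places between red and dark blue from sets 1 and 2 to set 3.

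The genes that carry cholesterol to progesterone, *Star*, *Cyp11a1*, *Fdx1* and *Hsd3b1*, had UMIs in the Cyp17a1-low cells of every set, while other steroid genes differed from the Cyp17a1-high cells in both directions. Of the 23 genes of the list of steroid enzymes and their partners, 13 reached 0.5 UMIs per 10000 in either group with the sets pooled. A single one, *Sult1e1*, was at least 2-fold higher in the members, where 42 of all 3239 genes above this minimum, or 1.30%, were higher. *Cyp17a1*, *Hsd17b1* and *Por* were at least 2-fold lower, where 66 of 3239, or 2.04%, were lower. Of these, *Cyp17a1* was lower through the choice of cells. *Cyp11a1*, also a gene of the rule, enters the medians of this list together with it. The median log2 ratio of the list was −0.28, and that of all genes 0.07. Against the matched cells *Sult1e1* alone was higher among 12 genes above the minimum, and *Cyp17a1*, fixed by the rule, alone lower. The median was −0.03, and over all genes 1.78% were higher and 1.53% lower.

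Cholesterol enters mitochondria through the protein of *Star*. Its RNA stood at 0.795, 18.6 and 21.5 UMIs per 10000 in the Cyp17a1-low cells of sets 1, 2 and 3, and at 1.03, 27.8 and 36.6 in the Cyp17a1-high cells. *Star* was low in set 1 and high in the other sets in both groups, and its ratio was 0.776 (0.559 to 1.05), 0.668 (0.611 to 0.729) and 0.587 (0.564 to 0.611). The first enzyme, *Cyp11a1*, was held above its cutoff in the members and stood at 48.3, 49.2 and 53.6 there and at 73.6, 55.9 and 100 in the Cyp17a1-high cells, which were not selected on it. *Fdx1* encodes ferredoxin, which brings electrons to that enzyme. It stood at 15.8, 79.9 and 28.3 in the members and at 24.6, 88.5 and 64.5 in the Cyp17a1-high cells, and was highest in set 2 in both.

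*Hsd3b1*, whose enzyme makes progesterone, stood at 40.7, 25.8 and 11.5 UMIs per 10000 in the members of sets 1, 2 and 3 and at 40.9, 29.4 and 17.2 in the Cyp17a1-high cells. The groups did not differ beyond counting error in set 1, with a ratio of 0.995 (0.970 to 1.02). The members were lower in sets 2 and 3, at 0.876 (0.793 to 0.965) and 0.668 (0.626 to 0.713). Both groups thus ranked the sets alike. Thinned shares of members with an *Hsd3b1* UMI were 98.9%, 96.7% and 73.4%, against 48.3%, 38.1% and 16.0% of the leukocyte-gene cells, and for *Star* in sets 2 and 3 they were 93.3% and 93%, against 22.6% and 16.0%. In set 1 a *Star* UMI was found in 26.2% of the unthinned members and 1.41% of the leukocyte-gene cells. *Por*, whose reductase feeds electrons to the *Cyp17a1* enzyme in the endoplasmic reticulum, stood at 0.467, 2.33 and 1.12 in the members and at 1.03, 3.23 and 2.16 in the Cyp17a1-high cells. Its ratio was 0.453 (0.376 to 0.542), 0.722 (0.552 to 0.929) and 0.519 (0.438 to 0.614), below 1 in each set. *Cyb5a*, which encodes the cytochrome b5 that aids the lyase step of that enzyme, did not follow this. It stood at 4.52, 6.19 and 5.30 in the members, with ratios of 1.05 (0.943 to 1.16), 1.37 (0.968 to 1.89) and 0.869 (0.786 to 0.959).

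*Hsd17b7*, whose enzyme acts both on estrone and in cholesterol synthesis, stood at 1.35, 2.12 and 0.762 UMIs per 10000 in the members of sets 1, 2 and 3 and at 0.601, 0.793 and 1.29 in the Cyp17a1-high cells. It was higher in the members of sets 1 and 2, with ratios of 2.25 (1.79 to 2.80) and 2.67 (1.83 to 3.80), and lower in those of set 3, at 0.591 (0.476 to 0.729). *Akr1c14* and *Srd5a1* reduce progestins and androgens. In the members they were highest in set 1, at 1.01 and 0.686, and lowest in set 3, at 0.104 and 0.229. *Sult1e1*, which inactivates estrogens by sulfation, was not found in the members of set 1 and stood at 0.320 in set 2, from 3 UMIs, and at 1.67 in set 3, with a ratio to the Cyp17a1-high cells of set 3 of 3.28 (2.43 to 4.40).

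Of the hormone receptors of theca cells, *Lhcgr* and *Prlr* had UMIs in 69.0%, 63.3% and 12.6% and in 86.8%, 80.0% and 79.4% of the thinned members of sets 1, 2 and 3. The thinned leukocyte-gene cells had them in 11.7%, 1.19% and 1.33% and in 11.7%, 4.76% and 8.0%. *Lhcgr*, the LH receptor through which hCG acts, stood at 5.85, 6.44 and 0.613 UMIs per 10000 in the members of sets 1, 2 and 3 and at 9.92, 6.22 and 2.27 in the Cyp17a1-high cells. It was low in set 3 in both groups, and its ratio was 0.589 (0.557 to 0.623), 1.04 (0.844 to 1.26) and 0.270 (0.213 to 0.340). *Prlr*, the prolactin receptor, stood at 8.18, 5.10 and 7.83 in the members, with ratios from 0.674 in set 3 to 1.21 in set 2. *Insl3*, a peptide hormone of theca cells, stood at 0.713, 0.222 and 0.0845 in the members and at 1.38, 0.449 and 0.287 in the Cyp17a1-high cells. Its ratio was 0.517 (0.445 to 0.598), 0.494 (0.234 to 0.927) and 0.295 (0.140 to 0.631), below 1 in each set. *Aldh1a1*, a retinal dehydrogenase and theca marker, stood at 24.4, 9.25 and 11.7 in the members, against 27.1, 15.6 and 11.8.

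The other gene lists were set against the same shares over all genes, 1.30% higher and 2.04% lower with the sets pooled. Among the 16 genes of cholesterol synthesis above the minimum none was 2-fold higher or lower, with a median log2 ratio of 0.00. None was among the 9 genes of cholesterol supply, with a median of −0.10, or among the 20 matrix genes, with a median of −0.02. Of 15 transcription factors *Runx2* was higher and *Cebpa* lower, of 10 receptors *Kit* was lower, and of 7 retinoid genes *Cyp26b1*, which breaks down retinoic acid, was lower. Of 28 genes of peroxide and glutathione handling *Ephx2* and *Gpx3* were higher and *Ephx1* lower. Of 7 genes of LH and cAMP signalling *Crem*, *Lhcgr*, *Pde10a* and *Prkar2b* were lower, with a median of −1.02. Within sets 1, 2 and 3 the same list had 1 of 4, 1 of 10 and 2 of 8 genes lower, with medians of −0.54, −0.37 and −0.28. Of 11 genes of the ovulatory list *Sult1e1* and *Timp1* were higher and *Areg*, *Ereg*, *Nppc* and *Tnfaip6* lower in the pooled sets, with a median of −0.47, and within sets at most 1 gene was higher and at most 1 lower. Of 22 immediate early genes *Egr3*, *Nr4a2* and *Nr4a3* were lower in the pooled sets and none within a set. Within sets, *Cyp26b1*, *Ephx2* and *Gpx3* were past 2-fold in the same direction in set 1, *Cebpa* in set 2, *Runx2* in sets 1 and 2 and *Ephx1* in sets 2 and 3, each among genes above the minimum there, and *Kit* in none. In set 2 *Runx2* had 24 UMIs in 5 members, 54.2% of them in 1 cell. The pooled ratios mix unequal shares of the sets, since set 2 gave 38 of 572 members and 407 of 1366 Cyp17a1-high cells. *Areg*, nearly limited to set 2 in both groups, had a pooled ratio of 0.195 (0.175 to 0.217) and ratios within sets of 0.434, 0.743 and 1.37, and *Pde10a* had 0.213 pooled and 0.292, 0.724 and 0.995 within sets. Within set 3, where all genes had a median of 0.09 and 1.5% were higher and 2.28% lower, the lists went both ways. The median was −0.57 over 19 genes of cholesterol synthesis, of which *Cyp51*, *Idi1* and *Sc5d* were at least 2-fold lower, and −0.76 over 12 steroid genes. It was 0.54 over 17 matrix genes, of which 2 were higher, and 0.56 over 19 immediate early genes, of which 1 was higher. Against the matched cells of set 3 none of the 19 genes of cholesterol synthesis was 2-fold lower, and their median was −0.28.

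Few genes differed by 2-fold in the same direction in each set. Of the 2288 genes above the minimum in each set, *S100a6* and *Wnt4* were at least 2-fold higher in the Cyp17a1-low cells of all 3, and *Fads1*, *Fads2*, *Cyp17a1* and *Inha* at least 2-fold lower, of which the last pair entered the choice of cells. Within sets, 1.10%, 10.2% and 1.5% of the genes above the minimum were 2-fold higher in sets 1, 2 and 3 and 0.643%, 4.56% and 2.28% lower, and the shares in set 2 come with its 38 members. Against the matched cells, *Bex4*, *Chchd10*, *Map1b*, *Nrn1* and *S100a6* were higher in each set and *Cyp17a1* and *Fads2* lower, of 2306 genes. Subsets of the members, here and below, were set against the unchanged comparison cells, which were not filtered in the same way. Among members with none of the luteal genes, *Chchd10* alone of these 5 stayed 2-fold higher in each set, and *Map1b*, *Nrn1* and *S100a6* stood at 0.305 (0.0544 to 1.16), 0.660 (0.0159 to 4.11) and 0.576 (0.179 to 1.42) in set 2, from 3, 1 and 5 UMIs. With fewer than 2 granulosa genes, *Chchd10* and *Bex4* were not 2-fold higher in set 3, at 1.67 (1.18 to 2.37) and 1.27 (0.761 to 2.12). Within sets 1, 2 and 3 of that comparison 1.43%, 10.7% and 1.61% of genes were higher and 0.853%, 4.98% and 1.73% lower. Of the 42 genes higher than in all Cyp17a1-high cells, 36 (85.7%) were also among the 58 higher than in the matched cells (62.1%), and of the 66 lower genes 37 (56.1%) were among the 50 lower ones (74.0%). Both comparisons share the members and the matched cells.

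*Fads2* and *Fads1* encode the desaturases that make long polyunsaturated fatty acids such as arachidonic acid, the precursor of prostaglandins. *Fads2* stood at 1.55, 1.02 and 1.29 UMIs per 10000 in the Cyp17a1-low cells of sets 1, 2 and 3, at 5.30, 4.13 and 3.59 in the Cyp17a1-high cells and at 0.228 in the remaining cells. Its ratio was 0.293 (0.258 to 0.332), 0.247 (0.164 to 0.359) and 0.361 (0.313 to 0.415). The intervals of the 3 sets overlapped, and against the matched cells the pooled ratio was 0.334 (0.303 to 0.367). *Fads1* stood at 1.03, 0.690 and 0.513 against 2.44, 2.12 and 1.65, with ratios of 0.420 (0.341 to 0.512), 0.326 (0.211 to 0.482) and 0.311 (0.245 to 0.393). *Ephx1*, the microsomal epoxide hydrolase, stood at 1.47, 0.459 and 0.156 against 2.91, 1.73 and 1.59, and *Hao2*, a peroxisomal hydroxy acid oxidase, at 1.82, 2.05 and 1.04 against 2.94, 3.59 and 4.70. *Gsta4*, which conjugates lipid aldehydes to glutathione, had ratios of 0.631, 0.616 and 0.565. *Prkar2b*, a regulatory subunit of the cAMP-dependent kinase, stood at 2.04, 4.49 and 2.59 against 5.72, 8.60 and 6.31.

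*S100a6* encodes a small calcium-binding protein. It stood at 9.78, 13.7 and 6.81 UMIs per 10000 in the Cyp17a1-low cells of sets 1, 2 and 3, at 0.489, 0.578 and 2.43 in the Cyp17a1-high cells and at 4.77 in the remaining cells of the pooled table. In pooled mean level the members thus differed from the Cyp17a1-high cells more than from the ovary at large. The ratios were 20.0 (17.9 to 22.4), 23.7 (19.2 to 29.4) and 2.80 (2.47 to 3.18). These means rest on part of the members. *S100a6* UMIs were found in 104 of 301 members of set 1, in 15 of 38 of set 2, where 1 cell held 47.4% of them, and in 148 of 233 of set 3. In set 1, 1 cluster of 47 cells described further on held most of them, and the other members of the set stood at 0.755, against 0.489 in the Cyp17a1-high cells. The ratio differed between members with and without luteal and granulosa genes. In the 249 members with none of the 4 luteal genes the ratios to the unfiltered Cyp17a1-high cells were 4.95 (3.61 to 6.65), 0.399 (0.126 to 0.963, from 5 UMIs) and 2.62 (2.06 to 3.30). In the 361 members with UMIs of fewer than 2 of 8 granulosa genes it was 12.5 (10.0 to 15.4), 2.37 (1.02 to 4.75) and 2.10 (1.83 to 2.42). *Fads2* stayed lower in both subsets, with pooled ratios of 0.351 (0.304 to 0.403) and 0.301 (0.266 to 0.339). The part of residual luteal or granulosa cells in the *S100a6* difference was not tested.

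*Wnt4*, a secreted signal of ovarian development, stood at 0.508, 1.26 and 1.05 UMIs per 10000 in the Cyp17a1-low cells and at 0.249, 0.203 and 0.363 in the Cyp17a1-high cells of sets 1, 2 and 3. Its ratio was 2.04 (1.60 to 2.60), 6.19 (4.0 to 9.43) and 2.90 (1.92 to 4.51), and 47.1% of its 51 UMIs in set 2 lay in 1 cell. Among members with none of the luteal genes the ratio was 1.19 (0.837 to 1.66) in set 1 and 3.24 (1.87 to 5.63) in set 3. In set 2 it was 0.852 (0.0729 to 3.56), from 2 UMIs. With fewer than 2 granulosa genes the ratios were 1.49 (0.954 to 2.25), 1.58 (0.289 to 5.01) and 1.66 (1.07 to 2.64), so that *Wnt4* was not 2-fold higher in each set in either subset. Further genes ranked high in every set encode a lysosomal protease (*Lgmn*), a repressor of helix-loop-helix factors (*Id2*), a mitochondrial protein (*Chchd10*) and a neuronal surface protein (*Nrn1*). *Chchd10* stood at 4.20, 2.88 and 2.24 against 0.977, 0.933 and 1.54, *Id2* at 2.32, 2.59 and 2.19 against 0.895, 1.38 and 1.43, and *Lgmn* at 1.17, 1.5 and 2.14 against 0.667, 0.558 and 1.24. In set 2 the 54 *Lgmn* UMIs lay in 10 members, 50.0% of them in 1 cell. *Nrn1* was 10.9 times as high (8.83 to 13.5) in set 1 and 1.59 and 1.81 times as high in sets 2 and 3, where the interval of set 2 (0.742 to 3.06) includes 1. In set 1 it was 4.0 times as high (2.53 to 6.08) among members with none of the luteal genes and 6.48 times (4.25 to 9.60) with fewer than 2 granulosa genes. *Chchd10*, at a ratio of 4.29 in set 1, was at 2.40 (1.95 to 2.93) there without the luteal genes, and with fewer than 2 granulosa genes its ratio in set 3 was 1.11 (0.863 to 1.41). *Stc1*, which encodes the secreted stanniocalcin, was the single gene past 2-fold in opposite directions in sets 1 and 3, at 1.34 against 0.474 and at 1.76 against 4.36.

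**Figure D3:**
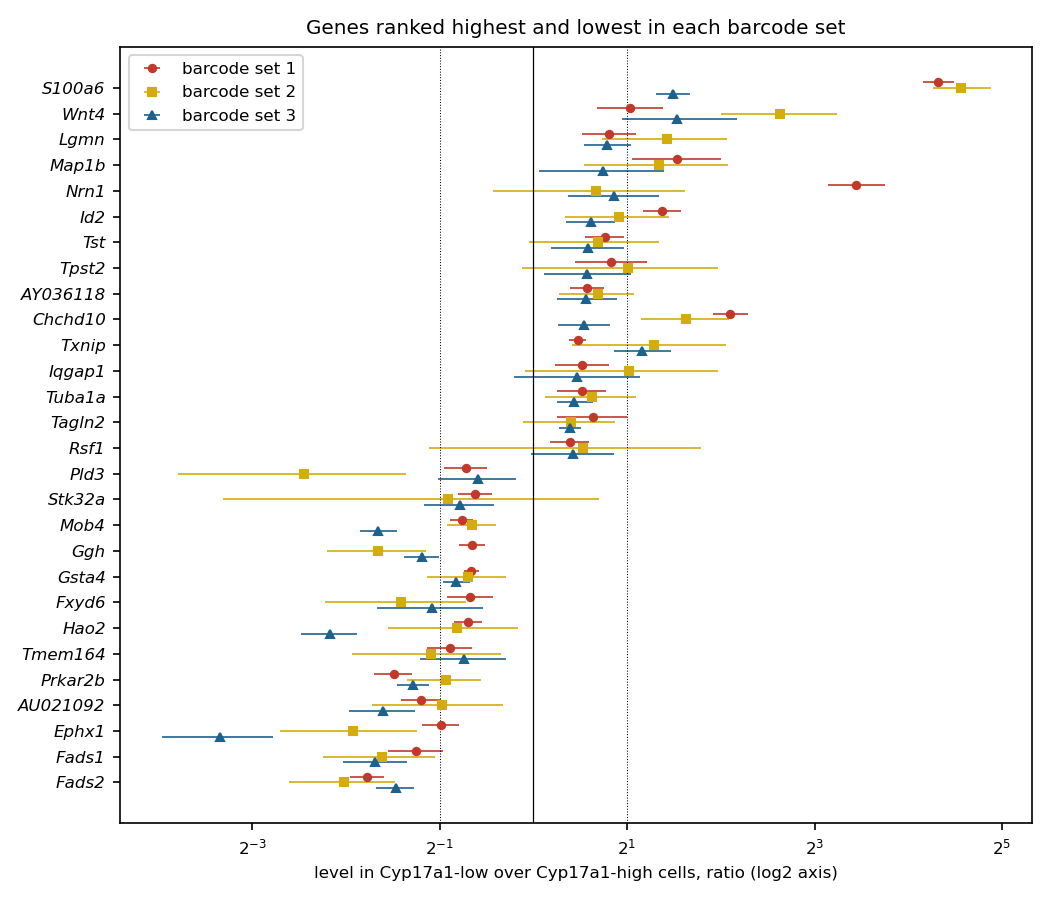
Ratio of the level in Cyp17a1-low cells to that in Cyp17a1-high cells (x axis, log2 scale) for the 15 highest-ranked and 13 lowest-ranked genes not used by the rule, with a point per barcode set and bars as 95% intervals of counting error, the lines marking equal levels and 2-fold either way. *Fads2* lies left of the 2-fold line in each set, and *S100a6* lies at 20.0 and 23.7 in sets 1 and 2 and at 2.80 in set 3.

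The Cyp17a1-low cells were not uniform. For each gene the squared deviation of a cell's UMIs from those expected at its depth was divided by the expected UMIs. This quotient was averaged over the members of a set. Its median over genes was 1.21, 1.47 and 1.21 in sets 1, 2 and 3. At the same relative spread it rises with a gene's abundance, so the order of genes by it also reflects abundance. *S100a6* reached 87.9, 152 and 32.6 and the nuclear RNA *Malat1* 163, 170 and 112, and *Igfbp5*, *Plac8*, *Sfrp4*, *Ephx2* and *Ren1* were also among the 10 most dispersed genes. *Adh1* stood at 5.99, 8.97 and 5.95 and *Prxl2a* at 4.30, 3.54 and 3.38. Each set was then clustered on its own, without the rule's genes and the markers. Sets 1, 2 and 3 gave 4, 1 and 3 clusters, and the leading genes of each are given as a description, since the clusters were built from the same values.

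In set 1, cluster 1 with 103 cells was led by *Enpep*, *Nrk*, *Col1a2* and *Hhip*. *Col1a2*, a fibrillar collagen gene, stood there at 15.1 UMIs per 10000, *Hhip*, which encodes a hedgehog-binding protein, at 1.40 and *Insl3* at 1.10. Cluster 2, with 93 cells, had weaker leading genes, among them *Arl4c*, *Stc1* at 2.15 and the transcription factor gene *Osr2* at 5.25, with *Insl3* at 1.05. These 2 clusters thus kept both theca markers, with *Aldh1a1* at 30.3 and 26.9.

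Cluster 3 of set 1, with 58 cells, carried the 3 markers. *Adh1* stood there at 5.25 UMIs per 10000 (4.67 to 5.89), *Mgat4c* at 1.64 (1.34 to 1.99) and *Prxl2a* at 9.08 (7.74 to 10.6), and *Prxl2a* was found in each of the 58 cells. The cluster was 19.3% of the members of set 1 and held 45.9%, 70.7% and 44.7% of their *Adh1*, *Mgat4c* and *Prxl2a* UMIs, although none of the 3 genes was used to build it. Only members were clustered, and the 3 markers together were not particular to them. All 3 were found in 38 members (12.6%) and in 100 Cyp17a1-high cells (13.5%) of set 1. It was led by the noncoding RNA *Meg3* at 3.79, with *Trank1*, *Ptn*, *Bex1* and the chemokine genes *Cxcl10* and *Cxcl1*. *Aldh1a1* stood at 28.1 there, but *Insl3* was at 0.0659, *Col1a2* at 0.645 and *Sfrp4* at 0.0534. *Cyp17a1* stood at 1.78 in this cluster, with a UMI in 41 of the 58 cells (70.7%), and at 2.17 and 1.94 in clusters 1 and 2. *Inha* was at 6.13, the highest of the 4 clusters. *Fads2* was at 3.82, near the 5.30 of the Cyp17a1-high cells of set 1, while it was at 0.909, 1.45 and 0.374 in clusters 1, 2 and 4. At a finer resolution of 1.0 the cluster of set 1 with most *Mgat4c* held 54 cells, at 1.62. Set 2 then gave 3 clusters, 1 of which, with 12 cells, had *Mgat4c* at 1.22, while the highest of set 3 was at 0.0713. All members of set 2 together held only 10 *Mgat4c* UMIs, in 7 cells, so the value of that cluster rests on few UMIs.

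Cluster 4 of set 1, with 47 cells, held 96.0% of the *S100a6* UMIs of the members of that set, at a level of 58.5 UMIs per 10000 (54.6 to 62.6). It was led further by *Nrn1* at 11.3, *Sgk1*, a kinase gene, at 9.32, *Runx2* at 3.85 and the epoxide hydrolase gene *Ephx2* at 14.8. *Cyp11a1* stood at 67.2 and *Hsd3b1* at 49.3, the highest levels among the 4 clusters. The theca genes were low, with *Aldh1a1* at 1.80, *Insl3* at 0.00970 and *Cyp17a1* at 0.224. The luteal gene *Sfrp4* was at 9.54 and *Nr5a2*, a nuclear receptor gene of granulosa and luteal cells, at 3.40, against at most 0.559 in the other 3 clusters.

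In set 3, cluster 1 with 121 cells was led by *Spp1*, the leukocyte chemokine gene *Ccl6*, found in 2 of the cells, *Ifitm1*, *Wnt4* and the contractile genes *Acta2* and *Tagln*, with *Pnoc*, the gene of the neuropeptide nociceptin, at 5.32 from 33 of its cells. The summed level of 9 smooth muscle markers was 4.12 in the members of set 3, 2.46 in the Cyp17a1-high cells and 20.7 in the remaining cells of that set, while the leukocyte genes *Osm* and *Ccl3* were at 0.833 and 0.530 in this cluster and at 0 in the other clusters of set 3. The part of these cell types in the cluster was not tested. Cluster 2 with 69 cells was led by *Adcyap1*, found in 5 cells, *Prkg2* in 21 and *Lyve1* in 15, followed by *Acsl4*, which activates arachidonic acid, in 50, and had *Star* at 35.1 and *Hhip* at 9.21. Cluster 3 with 43 cells had *Plac8* at 40.7, *Ly6d* at 29.6 and *Fabp3* at 4.05, and no *Mgat4c* UMI. No cluster of set 3 resembled cluster 3 of set 1 in its markers, with *Adh1* at 0.992 at most and *Mgat4c* at 0.0196 at most.

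**Figure D4:**
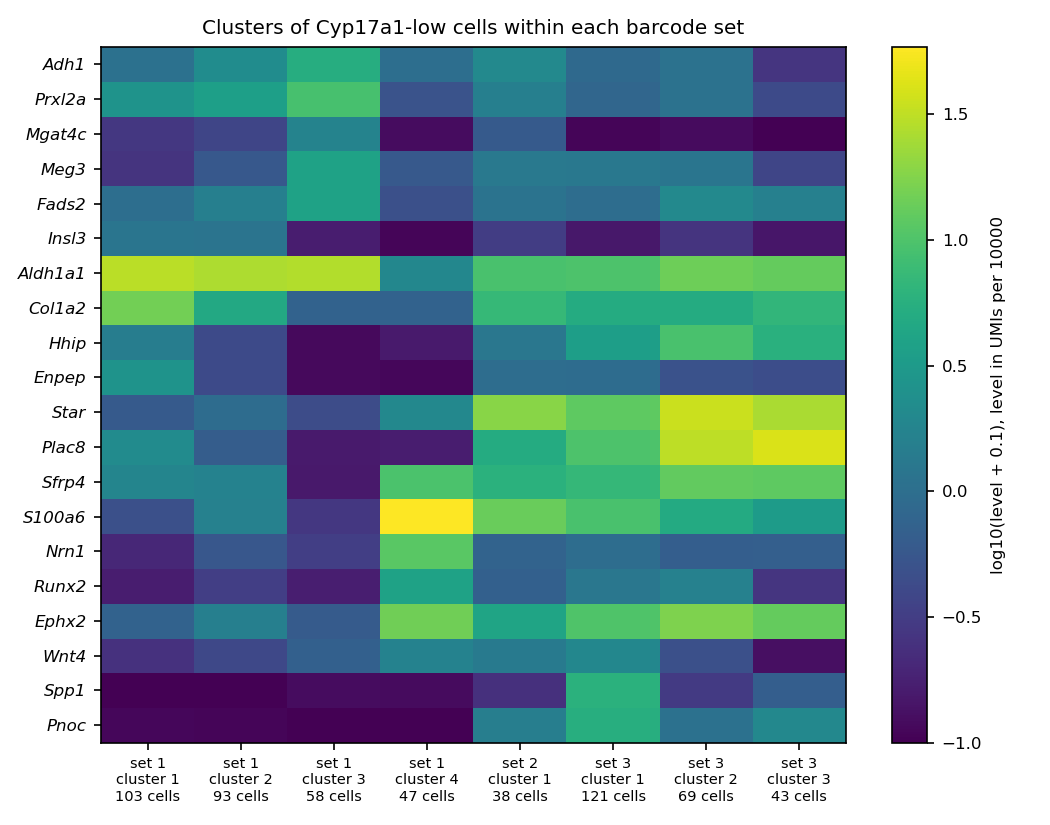
Colour gives the log10 of the level plus 0.1, the level being the mean UMIs per 10000, for 20 genes (rows) in the 8 clusters of Cyp17a1-low cells (columns, with their numbers of cells). *Adh1*, *Prxl2a*, *Mgat4c*, *Meg3* and *Fads2* are brightest in cluster 3 of set 1, while *S100a6*, *Nrn1* and *Runx2* are brightest in cluster 4 of set 1.

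The barcode sets differed from each other within the Cyp17a1-low cells more than the members differed from the Cyp17a1-high cells of the pooled table. Set 2 was at least 2-fold higher than set 1 for 405 of 3602 genes (11.2%) and lower for 598 (16.6%). Set 3 was higher than set 1 for 377 of 3596 (10.5%) and lower for 384 (10.7%), and higher than set 2 for 705 of 3540 (19.9%) and lower for 452 (12.8%). In the Cyp17a1-high cells the same 3 comparisons gave 299 higher (9.05%) and 306 lower genes (9.26%), 395 (11.3%) and 414 (11.9%), and 576 (17.6%) and 355 (10.8%). The median log2 ratio over all genes was −0.19 for set 2 over set 1, −0.02 for set 3 over set 1 and 0.19 for set 3 over set 2, and the ratios below are not shifted by these medians.

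Sets 2 and 3 both stood above set 1 in genes of the ovulatory list, which are known to respond to LH. In set 2, 9 of the 12 genes above the minimum were at least 2-fold higher than in set 1 and 1, *Cited4*, lower, with a median log2 ratio of 3.08. In set 3, 8 of 10 were higher and *Cited4* lower, with a median of 3.37, and *Ereg*, *Errfi1*, *Rgs2*, *Star* and *Tnfaip6* were higher in both. Set 3 over set 2 gave 2 higher and 7 lower of 12, with a median of −1.46. Over all genes 11.2% were higher and 16.6% lower for set 2 over set 1. These shares were 10.5% and 10.7% for set 3 over set 1, and 19.9% and 12.8% for set 3 over set 2. *Areg* and *Ereg*, ligands of the EGF receptor, stood at 0.0508, 10.6 and 0.285 and at 0.286, 16.3 and 1.95 UMIs per 10000 in sets 1, 2 and 3. *Tnfaip6*, which encodes a hyaluronan-binding protein, stood at 0.0296, 11.3 and 0.758, and the phosphodiesterase gene *Pde10a* at 0.130, 11.4 and 0.606. The Cyp17a1-high cells ranked the sets nearly alike, with *Areg* at 0.117, 14.3 and 0.208 and *Tnfaip6* at 0.0274, 7.15 and 0.464. Of 10 genes of LH and cAMP signalling, 6 were higher and none lower in set 2, with a median of 2.53, and of 23 immediate early genes 7 were higher and none lower, with a median of 0.33. *Fos*, also induced by tissue dissociation, was not among them, at 19.7, 16.9 and 14.1. The part of dissociation in any of these values was not tested.

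Set 3 also differed in cholesterol synthesis. Of 17 genes of that list, 5 were at least 2-fold higher than in set 1, *Cyp51* and *Sqle* among them, and none lower, with a median log2 ratio of 0.61. Over all genes 10.5% were higher and 10.7% lower in that comparison. *Sqle*, which encodes squalene epoxidase, stood at 0.910, 0.875 and 2.22 in sets 1, 2 and 3 of the members and at 0.928, 0.920 and 2.95 in the Cyp17a1-high cells. Both groups thus had most of it in set 3. *Timp1*, an inhibitor of matrix proteases on the ovulatory list, stood at 1.06, 1.72 and 14.5, *Plac8* at 0.906, 4.89 and 21.6, and *Hhip* at 0.592, 1.16 and 5.57. *Akr1b7*, of the aldo-keto reductases, and *Nts*, the neurotensin gene, were not found in the members of set 1 and stood at 3.26 and 3.72 in set 3, at least 350-fold and at least 400-fold higher, with a floor of 3 UMIs over the group. In set 3 their UMIs lay in 53 and 116 members, with 19.8% and 24.3% of them in 1 cell. The part of RNA from other cells in these values was not tested. *Pnoc* stood at 0.00616, 1.43 and 3.40 in the members and at 0.0615, 0.483 and 0.455 in the Cyp17a1-high cells. In the members of set 1 it had 2 UMIs, and in those of set 2 it had 43 UMIs in 3 cells, 48.8% of them in 1 cell. In set 3 *Pnoc* was 7.47 times as high in the members (5.93 to 9.49). *Spp1*, the osteopontin gene, was at 3.18 in set 3, but 71.1% of these UMIs lay in 1 cell.

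Genes highest in set 1 were *Gas6*, a ligand of the TAM receptors, at 32.1, 13.2 and 0.794 UMIs per 10000 in sets 1, 2 and 3 of the members, the kinase-like gene *Trib2* at 4.26, 0.413 and 0.208, and the kinase gene *Pak3* at 4.20, 0.799 and 0.178. The Cyp17a1-high cells had *Gas6* at 29.8, 16.2 and 1.11, *Trib2* at 4.71, 1.13 and 0.435 and *Pak3* at 3.39, 1.18 and 0.131. All 3 thus ranked the sets alike in both groups. *Fosl2*, the transcription factor gene the study is about, stood at 2.70, 2.54 and 1.13 in the Cyp17a1-low cells and at 1.78, 2.84 and 0.793 in the Cyp17a1-high cells.

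**Figure D5:**
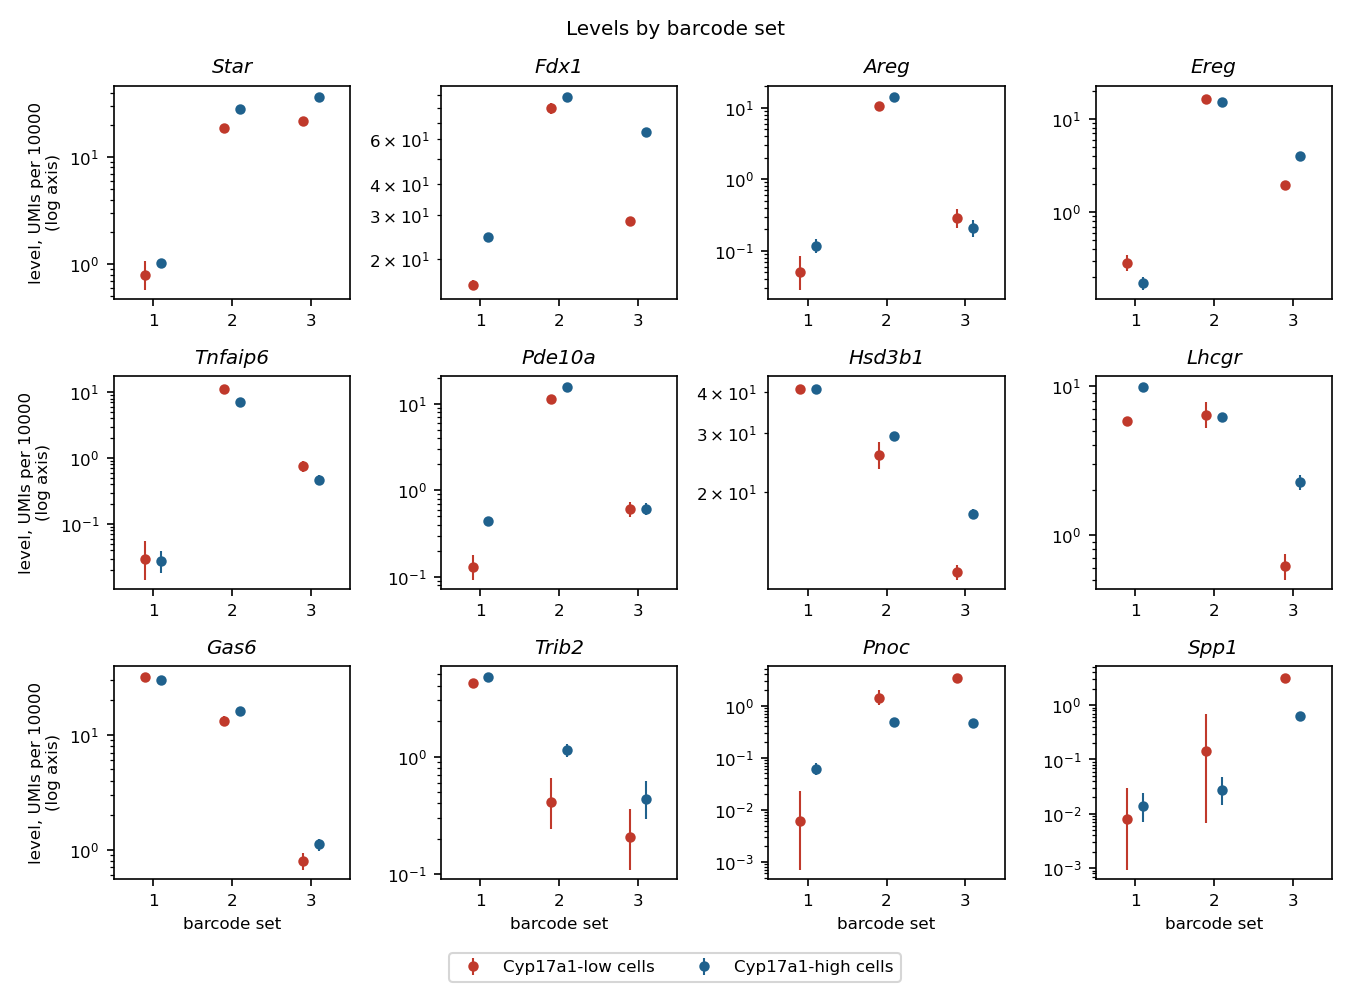
Levels in UMIs per 10000 (y axes, log scale) of 12 genes in barcode sets 1 to 3 (x axes) in Cyp17a1-low (red) and Cyp17a1-high cells (blue), with points as means over cells and bars as 95% intervals of counting error. *Areg*, *Ereg*, *Tnfaip6* and *Pde10a* peak in set 2 in both groups, *Gas6* and *Trib2* are highest in set 1 in both, and *Pnoc* in set 3 is at 3.40 in the red and 0.455 in the blue points.

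The rule capped *Inha* and the 4 luteal genes and set *Ptprc* and *Pecam1* to 0, so the sums of granulosa, luteal, immune and endothelial markers were partly fixed by the choice of cells. The 13 granulosa markers, which include *Inha*, summed to 8.41 UMIs per 10000, against 24.2 in the Cyp17a1-high cells, 8.78 in the matched cells and 61.8 in the remaining cells, and 211 members held UMIs of at least 2 of 8 granulosa genes. The 8 luteal markers, which include *Lhcgr* and *Prlr*, summed to 20.2, against 24.6, 21.0 and 7.46, with *Akr1c18* at 0, and *Sfrp4* was the luteal gene found in 281 members, 100, 19 and 162 of them in sets 1, 2 and 3. The 12 stromal markers summed to 25.9, against 24.7 in the Cyp17a1-high cells, 31.9 in the matched cells and 43.7 in the remaining cells. By set they summed to 21.1, 38.2 and 30.1 in the members and to 25.4, 26.5 and 18.8 in the Cyp17a1-high cells, and in set 2 5 of 9 above the minimum, *Dcn*, *Lum*, *Ogn*, *Pdgfra* and *Tcf21*, were at least 2-fold higher in the members, where 10.2% of all genes were. Endothelial, immune, epithelial, oocyte and red cell markers summed to 0.395, 0.531, 0.183, 0.0465 and 0.106, and 2 of 9 endothelial, 3 of 12 immune, 2 of 8 epithelial and 6 of 8 oocyte markers were at 0. In the same order they summed to 0.701, 0.386, 0.106, 0.0383 and 0.0398 in the Cyp17a1-high cells. The sums were 0.475, 0.173, 0.0670, 0.0294 and 0.0471 in the matched cells and 3.75, 2.71, 0.383, 0.0715 and 0.185 in the remaining cells. All but the endothelial sum were thus higher in the members than in both Cyp17a1-high groups. The part of these other cell types in the values above was not tested beyond the subsets given.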

How the data were processed

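The authors deposited 1 table of 24958 genes by 31776 cells that holds natural log (ln) values, ln(1 + UMIs per 10000). The submitters' processing notes name Cell Ranger, Seurat and mm10, and their versions are not given in the sources used here. The study describes graph-based Louvain clustering and tests between clusters, and its clusters and tests were not used here. Every one of its 80167176 values above 0 back-transformed to whole UMIs within 0.01 UMI, so UMIs were recovered: 240030587 in all, with a median of 6347.5 per cell.

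The level is the mean over cells of UMIs per 10000. Its 95% interval is the exact Poisson interval of the effective number of UMIs, and that of a ratio the exact conditional interval. This replaced the planned interval of the summed UMIs, which was too narrow on simulated data. A gene was called at 2-fold with a level of at least 0.5 in either group. Shares were compared after thinning each cell to 3000 UMIs. Levels were compared between groups of cells gene by gene or as sums over a marker list, and not from gene to gene. Clusters were made by Louvain clustering at resolution 0.6 on 1500 variable genes, 15 principal components and 15 neighbours. No doublet caller was run and no doublets were removed.

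The members, gene lists and named genes were chosen with earlier results of these data known. Named were the genes of the rule and the markers, the 15 highest by the smallest ratio over the sets and the 15 lowest by the largest, the 10 highest and lowest between each pair of sets (sets 1 and 3 added after the data were seen), the 10 most dispersed, and list genes at 2-fold or with a role to describe. Genes that lead a cluster, *Bex4*, *Stc1* and *Fosl2* were named after their values were seen. The alternatives are given in the closing section. Tools were Python 3.11.15, numpy 2.4.6, scipy 1.17.1, pandas 2.3.3, scikit-learn 1.9.0, python-igraph 0.11.9 and matplotlib 3.10.9.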

Additional observations from a re-analysis of the deposited data

Results flagged for a closer look

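Looked at were 60 genes, those of the rule and the markers, the steroid enzymes and the genes ranked highest and lowest against the Cyp17a1-high cells. Of these, 2 stood at least 1.5-fold higher in the Cyp17a1-low than in the Cyp17a1-high cells in at least 1 barcode set and at least 1.5-fold lower in another, each beyond counting error. The ranked genes could not do so, since their ranking by the smallest or largest ratio left them on 1 side of equal levels in every set. The count of 2 among the 60 is therefore no measure of how common such genes are. For *Adh1* the ratios of sets 1, 2 and 3 were 1.95, 1.55 and 0.334. For *Hsd17b7*, which makes an enzyme of estrogen and cholesterol synthesis, they were 2.25, 2.67 and 0.591. Outside the 60, *Stc1*, at 2.84, 0.928 and 0.404, and *Ereg*, at 1.65, 1.08 and 0.485, met the same condition, and further genes were not searched. In set 1, 1 cell held 25.8% of the 124 *Ereg* UMIs of the members. The *Ereg* ratio there was 1.08 (0.739 to 1.55) among members with none of the luteal genes and 2.09 (1.56 to 2.77) with fewer than 2 granulosa genes. With 1 library per time point the difference between sets was not tested.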

How the results depend on the processing

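No paired analysis between time points was possible because they have 1 library each and so share only 1 replicate number. Cyp17a1-low and Cyp17a1-high cells were compared within each barcode set, and no test over the 3 sets was run. The share of members, 1.80%, became 2.43% with *Cyp11a1* from 2.5, 1.24% from 3.5, 0.865% with *Cyp17a1* at 0, 0.299% with *Inha* at 0, 1.14% without members holding 2 or more granulosa genes, 1.65% without the deepest 10% of cells, 1.27% and 2.44% without sets 1 and 2, and 0.784% with no luteal gene allowed, a setting chosen after seeing the data. The count of higher genes, 42, became 96 with *Cyp17a1* at 0, 279 with *Inha* at 0, 67 with fewer than 2 granulosa genes, 120 without set 1, 71 against *Cyp17a1* of at least 3.5, 182 and 11 at level minimums of 0.1 and 2, 19 with no luteal gene and 23 with the sets weighted alike, the last also chosen after seeing the data. The count of lower genes, 66, became 120, 223, 166 and 25 with *Cyp17a1* at 0, with *Inha* at 0, without set 1 and without set 2, 128 and 23 at minimums of 0.1 and 2, and 28 with the sets weighted alike. Between sets, the 1003 genes of set 2 over set 1 became 2624 with *Inha* at 0, 1652 with fewer than 2 granulosa genes and 3432 and 167 at the minimums of 0.1 and 2. The 761 of set 3 over set 1 became 1957, 2244 and 192 with *Inha* at 0 and at these minimums, and the 1157 of set 3 over set 2 became 2461, 3581 and 207, and 1813 with no luteal gene. Over 15 alternatives the pooled ratio ranged from 0.424 to 1.85 for *Adh1*, with 0.574 without set 1 and 1.85 without set 3, from 0.114 to 0.687 for *Mgat4c* and from 0.406 to 1.33 for *Prxl2a*. *Mgat4c* alone stayed on 1 side of equal levels in all of them. The cause of these shifts was not tested. Set 2 values rest on 38 members, with a median depth of 8267.5 UMIs.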
